A study of Mus musculus with 8 samples.

Results

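The stretch described here is chr8:91050001-91250000 of the mouse genome (mm9), with the genes *Nkd1*, *Snx20* and *Nod2*. It was chosen by the number of cytosines that differed between the male parents of a cross of B6 (C57BL/6J) and DBA (DBA/2J) mice, so values of the male parents are given as a description, with no test. Methylation was measured by reduced representation bisulfite sequencing (RRBS), which reads cytosines close to the ends of MspI fragments, in whole livers of mice 16 weeks old that were fasted for 16 h. There was 1 female and 1 male of each of 4 groups, namely B6, DBA, BXD (F1 with a B6 mother) and DXB (F1 with a DBA mother), with no treatment named. With a single mouse of each strain and sex, the errors given for the parents are counting errors alone. The level of a cytosine is the percentage of reads that kept a C. Whole liver mixes cell types, so a change in the share of a cell type and a change of methylation within it cannot be told apart, and no expression was used to check the tissue.

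In this window, 1752 cytosines had at least 10 reads in 1 or more mice, of 10364720 in the genome, and 284 of them were CGs. The counts ran from 580 cytosines (DBA male) to 1560 (B6 female) per mouse, and 95 cytosines, 35 of them CGs, had 10 reads in all 8 mice. *Nkd1* (91045243-91118786, plus strand, start outside the window), *Snx20* (91150727-91160027, minus strand), *Nod2* (91171214-91212373, plus strand) and the first part of *Cyld* (91220927-91275844, plus strand) were annotated there. Over the genome, libraries held between 2903539 (DBA male) and 9386346 (B6 female) cytosines with 10 reads.

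*Nkd1* encodes naked cuticle 1, a Wnt target whose product binds Dishevelled and dampens Wnt signalling. *Snx20* encodes a sorting nexin of leukocytes that binds the selectin ligand PSGL-1 and brings it to endosomes. *Nod2* encodes the intracellular receptor for muramyl dipeptide, a fragment of bacterial cell walls, which signals through RIPK2 to NF-kB, and *Cyld* encodes a deubiquitinase that limits this kind of signal. CG-rich DNA at active gene starts is usually unmethylated, and the sparse CGs of gene bodies are usually methylated.

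All 18 CGs called between the parents lay in the last coding exon of *Snx20*, between 91151209 and 91151489, a span of 281 bases. The exon part is 91151061-91151726. A cytosine was called when both mice had at least 10 reads, the level of each mouse lay outside the exact 95% binomial interval of the other, and the levels differed by more than 50 percentage points. The called CGs sit on 3 adjacent MspI fragments of the coding sequence, printed here from the mm9 plus strand because the results turn on which fragment end was read. Capitals mark the CGs called in 1 of the parent pairs.
*Snx20* fragment 1, chr8:91151119-91151281: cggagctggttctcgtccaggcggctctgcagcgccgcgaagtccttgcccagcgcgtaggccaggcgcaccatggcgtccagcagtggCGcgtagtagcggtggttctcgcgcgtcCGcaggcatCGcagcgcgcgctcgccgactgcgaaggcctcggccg
*Snx20* fragment 2, chr8:91151280-91151415: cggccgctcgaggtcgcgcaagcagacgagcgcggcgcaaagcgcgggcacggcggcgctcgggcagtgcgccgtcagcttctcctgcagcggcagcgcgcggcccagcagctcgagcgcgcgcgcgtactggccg
*Snx20* fragment 3, chr8:91151414-91151534: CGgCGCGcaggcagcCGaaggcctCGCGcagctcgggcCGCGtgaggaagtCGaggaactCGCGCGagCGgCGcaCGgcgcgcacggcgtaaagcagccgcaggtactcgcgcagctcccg

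Joined, the fragments are 416 bases long and hold 76 CGs, or 18.3 per 100 bases, against 1.16 per 100 bases over the window. Reads of the plus strand start at the left end of a fragment and reads of the minus strand at its right end, so each fragment has 2 read ends. The CGs of one read end in one mouse come from the same reads and are not independent measurements. Reads reached 100 bases into these fragments in the female of each parent strain and the male BXD mouse, 76 bases in the parent males, and 50 bases in the other 3 mice.

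**Figure D1:**
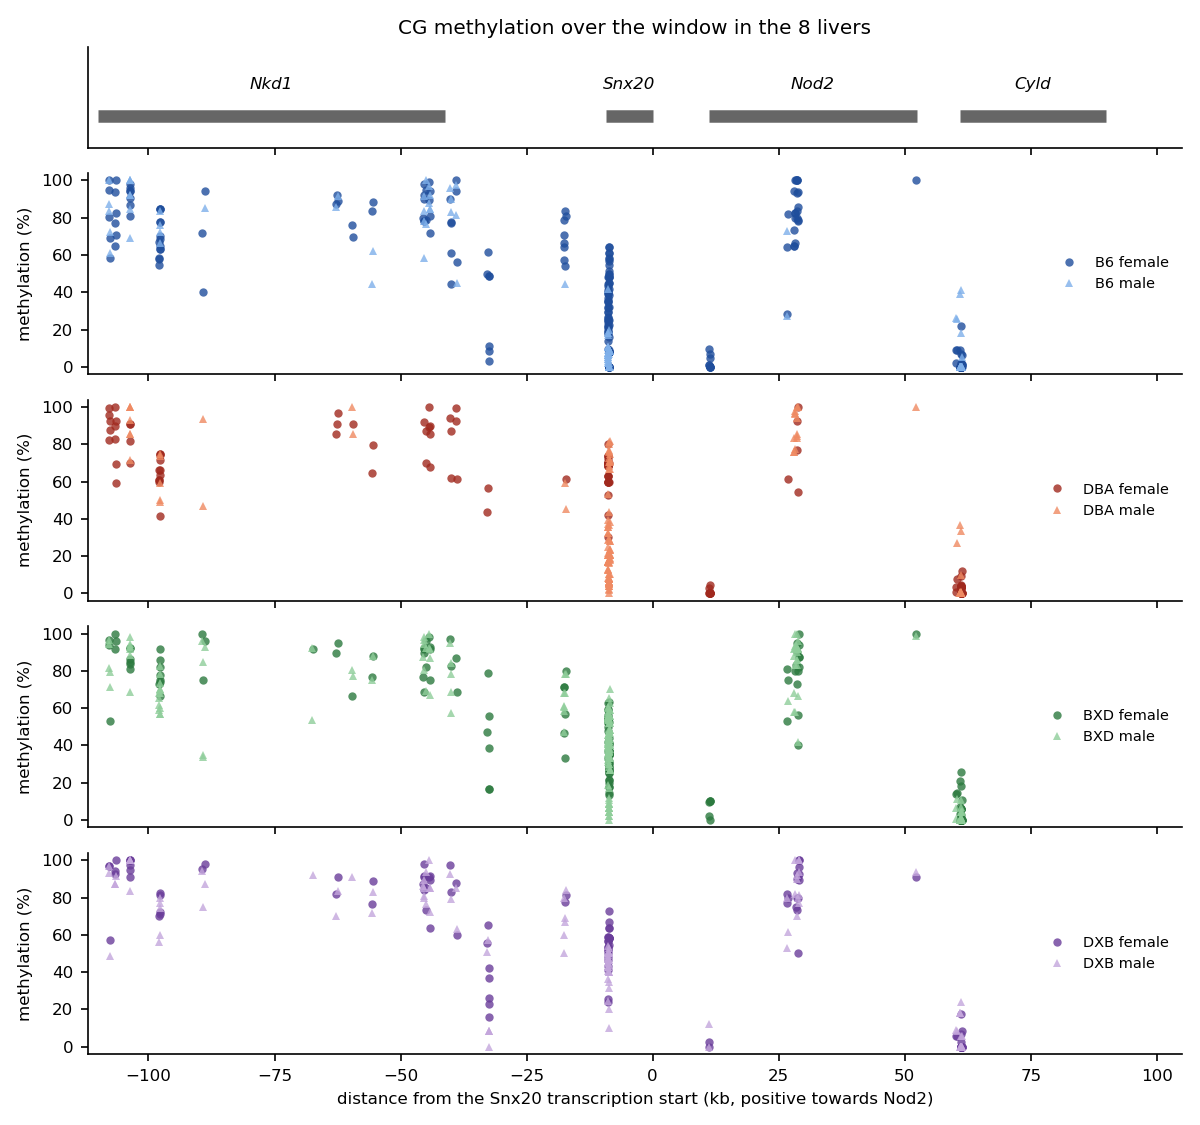
CG methylation (%, CGs with at least 10 reads) against distance from the *Snx20* transcription start (kb), with 1 panel per strain or cross, circles for the female and triangles for the male, and gene extents on top. Levels in the *Snx20* exon run from 0 to 81.6%, and CGs near the *Nod2* start stay at or below 12.2%.

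In the male parents, 15 of 100 tested CGs of the window were called, and each was higher in DBA. Over the genome, 0.111% of tested CGs were called higher in DBA and 0.312% higher in B6 in this pair, and nothing is read from the contrast, which chose the window. None was called higher in B6, and none of 154 tested cytosines outside CG was called. The 15 CGs lie on the plus strand of fragment 3, at 91151414, 91151417, 91151419, 91151429, 91151438, 91151440, 91151452, 91151454, 91151465, 91151474, 91151476, 91151478, 91151482, 91151485 and 91151489. They therefore come from a single read end, 76 bases across.

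At these 15 CGs the B6 male had 11 to 12 reads and a level of 0 to 8.33%, with 5 CGs at 0. The DBA male had 227 to 231 reads and a level of 66.7 to 81.6%. The gap, DBA minus B6, was 58.3 to 77.1 points, smallest at 91151474 (8.33% of 12 reads against 66.7% of 231) and largest at 91151429. Just outside the threshold on the same read end was 91151447, with 0% in the B6 male and 43.7% in the DBA male. The upper interval bound in the B6 male reached 38.5%, as 12 reads allow, and the lowest lower bound in the DBA male was 60.2%.

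That read end was the deepest of the window in the DBA male. In this mouse, 16 CGs of the window exceeded 200 reads, and all are on this read end, while the median of its CGs with 10 reads in the window was 38 reads. The 5 other read ends of the exon had 23 to 49 reads in the same mouse, and 91221060 in the *Cyld* promoter had 141. The part of this depth in the result was not tested. Nothing in the counts separates copies of a molecule, so intervals cover counting error only.

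The females could not answer whether these 15 CGs held, since none had 10 reads in both female parents. The B6 female had 6 to 7 reads and a level of 14.3 to 28.6%. The DBA female had 1 to 2 reads and a level of 0 to 50%, with interval bounds from 0 to 98.7%. These depths did not resolve the difference between the pairs.

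The female parents had 3 called CGs of 126 tested in the window, all higher in DBA and all on another read end, the minus strand of fragment 1. None of the 3 passed Fisher's exact test adjusted over the genome (adjusted p 0.462 to 0.610), and none was called with at least 20 reads. Over the genome, 0.0505% of tested CGs were called higher in DBA in the females and 0.498% higher in B6. None of 789 tested cytosines outside CG was called. At 91151209 the B6 female had 25.3% of 75 reads and the DBA female 80% of 10, a gap of 54.7 points. At 91151237 the levels were 17.3% of 75 reads and 70.0% of 10 (52.7 points), and at 91151246 they were 18.7% and 70.0% at the same depths (51.3 points). The DBA female thus sat at the minimum depth at each of them. Just outside the threshold was 91151253, with a gap of exactly 50 points.

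At these 3 CGs the male parents did have the depth and were not called. At 91151209 the B6 male had 7.45% of 94 reads and the DBA male 17.4% of 23, a gap of 9.94 points. At 91151237 the levels were 2.11% of 95 reads and 12.5% of 24 (10.4 points), and at 91151246 they were 4.21% of 95 and 21.7% of 23 (17.5 points). DBA was higher in both pairs. These CGs were picked by a female gap above 50 points, which favours a larger gap in the females, so the difference between the pairs was not tested and its planned interval is not given. No CG was called in both pairs.

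**Figure D2:**
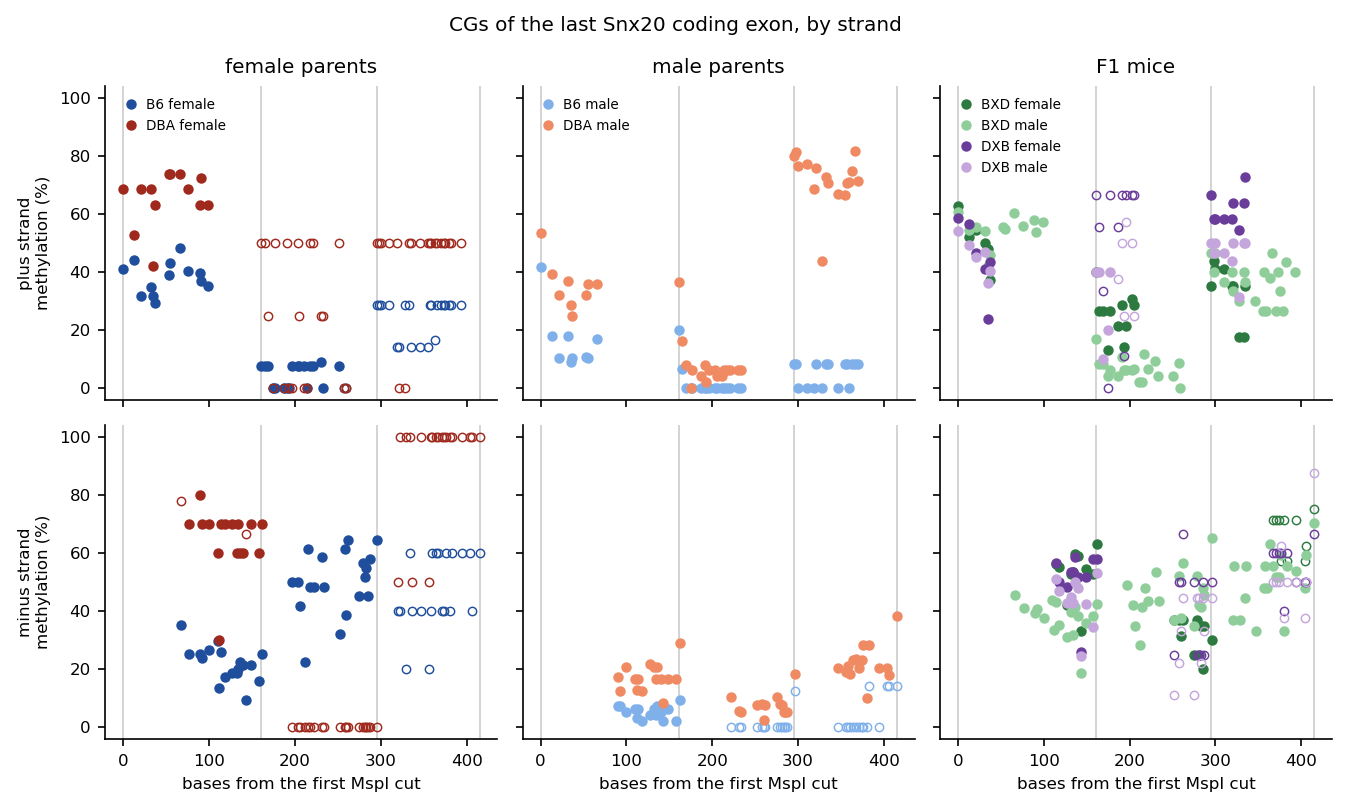
Methylation (%) of CGs of the last *Snx20* coding exon against bases from the first MspI cut, plus strand above and minus strand below, for the female parents, the male parents and the F1 mice. Filled points have at least 10 reads, open points fewer, and grey lines mark MspI cuts. The DBA male is at 66.7 to 81.6% on the start of fragment 3 on the plus strand, apart from 1 CG at 43.7%. It is at 0 to 53.6% at CGs of the other 5 read ends.

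On fragment 1, which holds none of the male calls, 24 CGs had 10 reads in all 4 parents, and all 24 were higher in DBA in both pairs. The male values come from the contrast that chose the window and are a description. The female gap was 8.42 to 54.7 points with a median of 37.9, and the male gap was 5.13 to 25.3 points with a median of 14.5. These 24 CGs are 2 read ends and not 24 measurements. Of the exon, the females could be tested at 29 CGs, all on fragment 1 and all higher in DBA.

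With the B6 female set against the DBA male, the same rule gave calls in the opposite direction, at other CGs. The 15 CGs called in the male parents had 6 to 7 reads in the B6 female and were not tested in this pair. Of 56 CGs tested in the exon, 16 were higher in DBA, 39 were higher in B6 and 4 were called, all higher in B6. Over the genome that pair had 0.101% of CGs called higher in DBA and 0.618% higher in B6. The 4 CGs, at 91151350, 91151377, 91151381 and 91151406, are on the minus strand of fragment 2, where the B6 female was at 58.1 to 64.5% of 29 to 31 reads and the DBA male at 5.26 to 8.11% of 36 to 38. With the B6 male against the DBA female, 20 of 24 CGs of the exon were called higher in DBA and none higher in B6, against 0.33% and 0.393% over the genome. These 24 CGs are the 2 read ends of fragment 1, and the DBA female had 10 or 19 reads at those called.

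Mice of the same strain also differed in the exon. The DBA male was lower than the DBA female at all 24 CGs tested, with a median difference of -41.2 points, and 6 of them were called, at 91151209, 91151211, 91151233, 91151237, 91151253 and 91151268. All 6 are on the minus strand of fragment 1, where the DBA female had 10 reads, and the 24 CGs are 2 read ends. The CGs 91151209 and 91151237 are also among those called in the female parents. On autosomes 0.269% of CGs were called in either direction between these mice. The B6 male was lower than the B6 female at 33 of 42 CGs, with a median difference of -13.1 points and no call, where 0.42% were called over the autosomes. No CG of the window was called between the sexes in BXD (130 tested, 0.193% over the autosomes) or in DXB (108 tested, 0.0555%). The gap between the DBA mice reached 62.6 points. With 1 mouse of each sex, sex and the single mouse or library cannot be told apart.

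**Figure D3:**
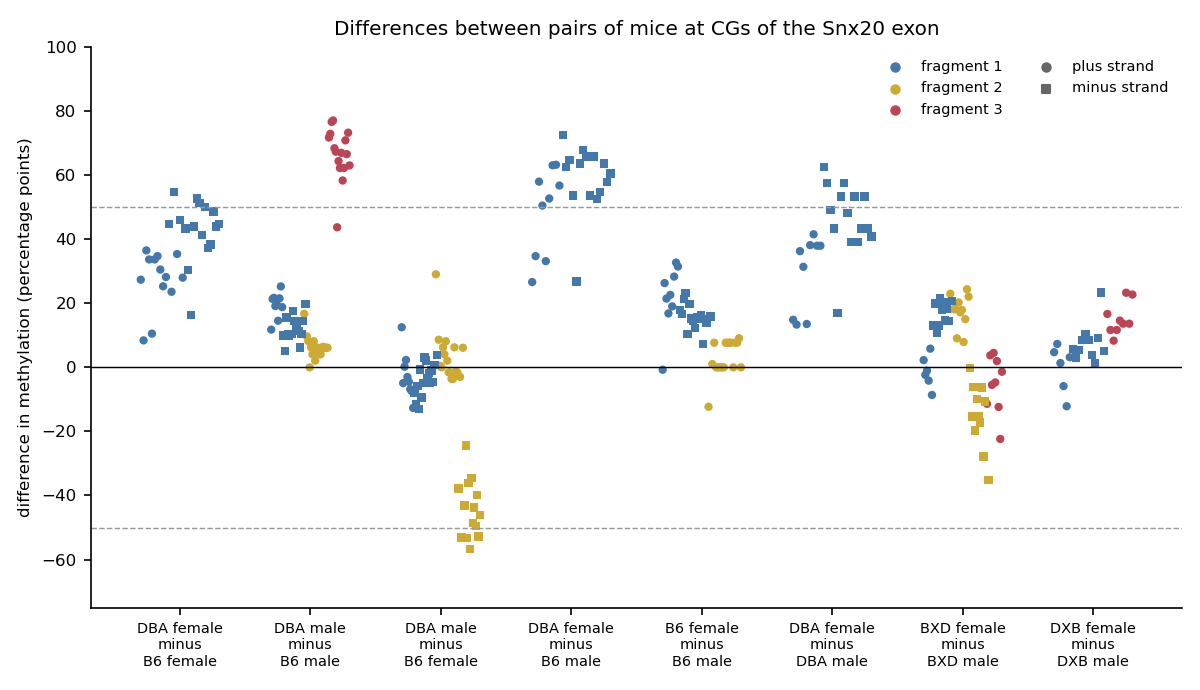
Difference in methylation (percentage points) at CGs of the *Snx20* exon with 10 reads in both mice, for 8 pairs of mice. Colours mark the fragment and shapes the strand, and dashed lines mark 50 points. Fragment 1 is above 0 in both pairs of the same sex, the male pair exceeds 50 points on fragment 3 alone, and the DBA male is below the B6 female on the minus strand of fragment 2.

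Summed over the CGs of a read end, fragment 1 on the plus strand was at 16.2% in the B6 male, 35.5% in the DBA male, 38.1% in the B6 female, 45.0% in the DXB female, 45.3% in the DXB male, 50.7% in the BXD female, 54.4% in the BXD male and 65.4% in the DBA female. On the minus strand the order was 5.34% (B6 male), 17.3% (DBA male), 22% (B6 female), 37.7% (BXD male), 43.7% (DXB male), 51.4% (DXB female), 52.9% (BXD female) and 65.7% (DBA female). Both strands thus placed the B6 male lowest, then the DBA male and the B6 female, then the 4 F1 mice, then the DBA female. Sums over a read end do not cover the same CGs in each mouse. On the plus strand they held 13 CGs in the B6 female, the DBA female and the BXD male, 9 in the parent males and 6 in the other F1 mice. On the minus strand they held 18, 16 and 11. The order of close values is therefore not read. Another summary used the 16 exon CGs with 10 reads in all 8 mice, strands added. These CGs all lie on fragment 1 and mostly reuse the reads summed above, so they are not a separate measurement. Their medians were 6.84% (B6 male), 21.3% (DBA male), 22.7% (B6 female), 40.6 to 54.0% (F1 mice) and 66.35% (DBA female). Read depth was 9 or more throughout.

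Fragment 2 did not repeat this order. Its plus strand was at 1.59% in the B6 male, 4.40% in the B6 female, 6.74% in the BXD male, 7.85% in the DBA male and 25.3% in the BXD female, and at 35.1% and 50.5% in the DXB male and female at 7 to 10 reads. Its minus strand was at 0.901% in the B6 male (7 to 8 reads), 7.79% in the DBA male, 31.6% in the BXD female, 44.8% in the BXD male and 50.1% in the B6 female. On fragment 3, the plus strand was at 5.24% in the B6 male, 71.8% in the DBA male, 33.6% in the BXD female, 36.5% in the BXD male, 61.5% in the DXB female and 46.5% in the DXB male. Its minus strand was at 22.2% in the DBA male (37 to 39 reads) and 50.8% in the BXD male (26 to 27 reads), with under 10 reads in the other 6 mice.

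**Figure D4:**
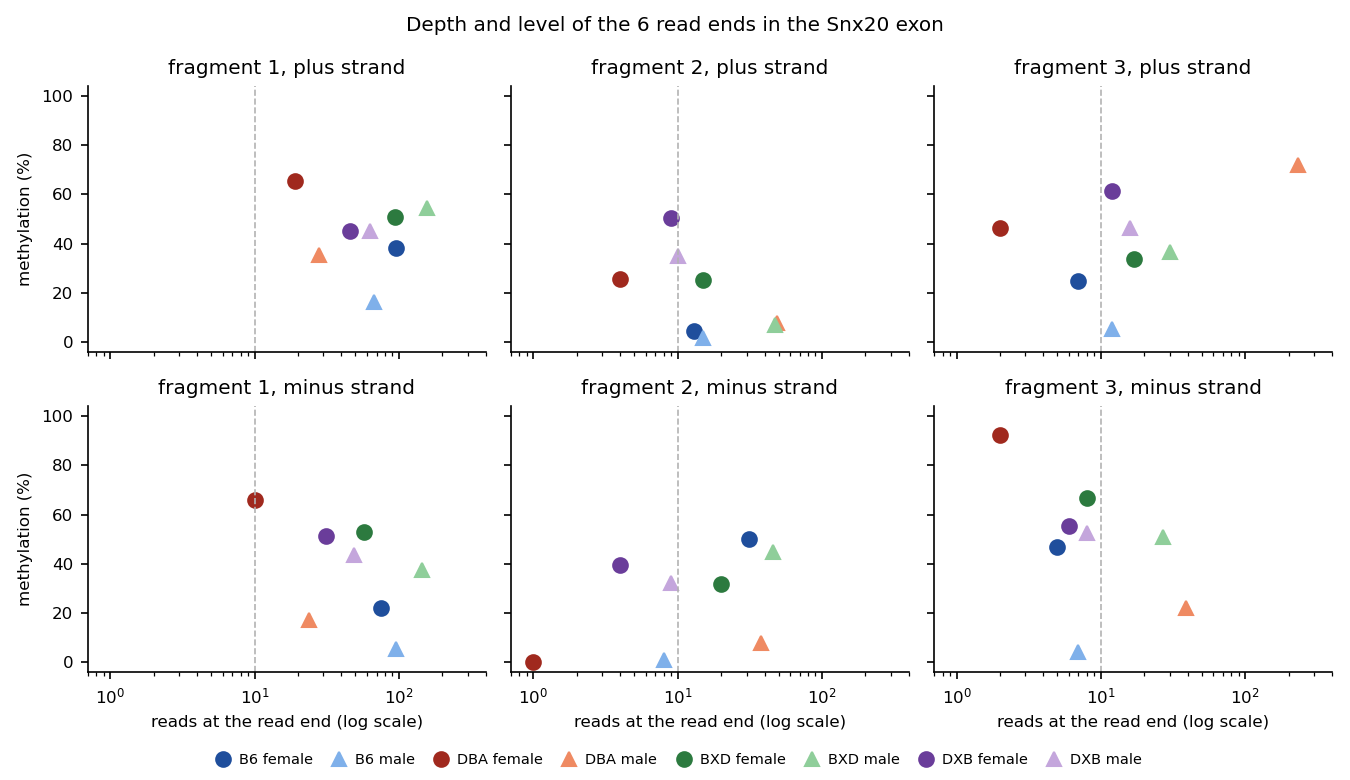
Methylation (%) summed over the CGs of each of the 6 read ends of the *Snx20* exon against its highest read depth (log scale), circles for females and triangles for males. The dashed line marks 10 reads. The DBA male on the plus strand of fragment 3 stands alone at 231 reads and 71.8%.

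The 2 strands of the same CGs could be compared where both were read, mostly where reads from both ends of a fragment overlapped. At 91151280 and 91151414, the first CGs of fragments 2 and 3, the minus strand was read from the fragment to the left. These CGs are counted below with fragments 2 and 3. In the DBA male, 8 CGs of fragment 3 had 10 reads on each strand, and the plus strand was higher at all 8, at 66.7 to 81.6% against 18.4 to 23.7%. By the rule used for the mice, 5 of the 8 were called different, where 0.324% of such CGs were over the genome of this mouse, and nothing is read from this, since the plus-strand values are those that chose the window. In the BXD male the strands of fragment 3 differed by -25.9 to 2.96 points (plus minus minus) at 18 CGs with none called, and on fragment 2 the plus strand was lower at all 13 CGs, with a median difference of -37.0 points and no call (0.226% over the genome). In the B6 female the plus strand of fragment 2 was lower at all 11 CGs, by a median of -40.7 points, and 1 was called (0.256% over the genome). Strands of one CG are read from different fragment ends and different molecules. The 15 CGs that chose the window were thus high in the DBA male on the strand that was called and at 23.7% or less on the other where it was read.

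The F1 mice, which did not choose the window, were read at 8 to 15 of these CGs. The BXD female was at 17.6 to 43.8% (8 CGs with reads, 16 to 17 reads) and the BXD male at 26.7 to 46.7% (15 CGs, 28 to 30 reads). The DXB female was at 58.3 to 72.7% (8 CGs, 11 to 12 reads) and the DXB male at 43.8 to 50% (8 CGs, 15 to 16 reads). By range, both BXD mice overlapped the B6 female (14.3 to 28.6%), which had 6 to 7 reads there. The DXB female overlapped the DBA male (66.7 to 81.6%) only in its highest values, and its median of 61.0% lay below that range. The DBA male values chose the window, so nothing is read from this overlap. Both BXD mice and the DXB male overlapped the DBA female (0 to 50%), which had 1 to 2 reads. At each of the 8 CGs read in all 4 F1 mice, which are one read end, both BXD mice were below both DXB mice. Other read ends did not all share this order. On the deeper plus strand of the fragment from 91151119, summed levels were 50.7% and 54.4% in BXD and 45.0% and 45.3% in DXB. On the plus strand of the fragment from 91151280 both BXD mice were below both DXB mice, which had 7 to 10 reads. On the minus strands the crosses were not separated. These sums do not all cover the same CGs. With 2 mice for each cross no exact test of the crosses can reach 0.05, and none was run.

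Set against the mean of the parents of the same sex, F1 levels depended on which sex was used. These sums do not all cover the same CGs, so an F1 level close to the mean is not read as above or below it. The plus strand of fragment 1 held 13 CGs in the female parents and the BXD male, 9 in the male parents and 6 in the other F1 mice. On the plus strand of fragment 1 the mean of the female parents was 51.8%, and the F1 females were at 50.7% (BXD) and 45.0% (DXB). The mean of the male parents was 25.8%, and the F1 males were at 54.4% and 45.3%, above both male parents. On the minus strand the mean of the female parents was 43.9% against 52.9% and 51.4% in F1, and that of the male parents 11.3% against 37.7% and 43.7%. On the plus strand of fragment 3 the mean of the male parents was 38.5% against 36.5% (BXD male) and 46.5% (DXB male). The DBA male value in that mean chose the window, so nothing is read from it. On its minus strand the mean was 13.25% against 50.8% and 52.5%, with under 10 reads in the B6 male and the DXB male. On fragment 2 the male means were 4.72% (plus strand) against 6.74% and 35.05%, and 4.35% (minus strand) against 44.8% and 32.3%. Depth there fell below 10 reads in the DXB male.

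Reads that hold a SNP had been sorted by the authors to one of the parental chromosomes and are called tagged here. The 3 *Snx20* fragments had no tagged read in any of the 8 mice, so DBA-tagged reads could not be examined at the called CGs. The nearest tagged cytosines lay 8506 bases to the left, between *Nkd1* and *Snx20*, and at least 35259 bases to the right, inside *Nod2*.

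The library labelled B6 male was the one with DBA tags elsewhere, but not in the window. Over the autosomes it had 16.1% DBA tags among 12087618 tagged cytosine calls, against 0.338% in the B6 female. In the window it had 0 DBA tags of 6101 (the exact two-sided 95% interval ends at 0.0605%, and the limit that a count of 0 allows is 0.0492%), and in the window with 1 Mb on each side 64 of 49464, or 0.129%. Calls of one read are not independent, so both limits are too narrow. The B6 female had 0 of 14996 in the window, the DBA male 1591 of 1591 and the DBA female 11575 of 11725 (98.7%). The 4 F1 mice had 44.0 to 49.1% DBA tags. In this library the tagged CG nearest on the left, 91142613, had 18 tagged reads and 91186890 on the right had 4, all of them B6. Only 3 called CGs had 10 reads in every parent, all on the minus strand of fragment 1, a read end without tagged reads. The level of this library was the lowest of the 4 parents at those CGs.

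*Nkd1* was methylated in all mice that were read. Of its 50 intronic CGs, 16 (DBA male) to 45 (B6 female) had 10 reads, and 3 had 10 reads in all 8 mice. Medians ran from 77.8% (BXD male) to 90.8% (DXB female) and do not cover the same CGs. Its 10 CGs in coding exons had medians from 84.6% (B6 male) to 92.1% (BXD male), with none at 10 reads in the DBA male. No CG of *Nkd1* was called in the female parents, of 40 tested on 10 fragments, or in the male parents, where 7 CGs of a single fragment could be tested. Outside *Snx20*, 25 CGs of the window had 10 reads in all 4 parents, 21 of them in the *Cyld* promoter, where levels are near 0, and 4 in *Nkd1*. Among them 10 were higher in DBA and 7 higher in B6 in the females, and 3 and 3 in the males, with gaps between -17.9 and 16.5 points.

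*Nod2* was low at its start and high in its coding exons. Within 1 kb of the start, 10 CGs had medians from 0 (DBA female) to 9.76% (BXD female) in the 5 mice with 10 reads at 2 or more of them, and the highest single level was 12.2% of 41 reads at 91171124 in the DXB male. The 100 bases upstream of the start are printed because they hold the first 3 of these CGs, in capitals.
*Nod2* upstream, chr8:91171114-91171213: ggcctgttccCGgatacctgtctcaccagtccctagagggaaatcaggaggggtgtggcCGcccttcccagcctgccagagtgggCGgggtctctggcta

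The 28 CGs in coding exons of *Nod2* had medians from 82.8% (B6 female) to 90.0% in the 7 mice with 10 reads at 4 or more of them. No CG of *Nod2* had 10 reads in both male parents, so the gene could be compared in the female parents alone. There, 15 CGs on 4 fragments were tested and none was called. Near the start, the B6 female was at 0 to 9.30% and the DBA female at 0 to 4.55%.

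Tagged reads of the F1 mice tested the 2 chromosomes within a liver, in mice that did not choose the window. Of 27 tests at 20 CGs with 10 reads of each strain, 2 passed at an adjusted p of 0.05 (Fisher's exact test in each mouse, Benjamini-Hochberg over all tagged CGs of that mouse). Over the genome the share was 8.48% in the BXD female, 7.22% in the BXD male, 7.9% in the DXB female and 7.37% in the DXB male, and in the window it was 0 of 4, 1 of 17, 0 of 3 and 1 of 3. Both passing tests were in *Nod2* and both had the B6 chromosome higher. The 5 CGs described next are printed from the mm9 plus strand as 41 bases with the CG in capitals, since each was read on both chromosomes.
*Nkd1* 91114747, chr8:91114727-91114767: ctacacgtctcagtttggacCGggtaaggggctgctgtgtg
Intergenic 91121010, chr8:91120990-91121030: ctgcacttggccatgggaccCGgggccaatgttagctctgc
Intergenic 91142613, chr8:91142593-91142633: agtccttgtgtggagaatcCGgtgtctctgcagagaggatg
*Nod2* 91186890, chr8:91186870-91186910: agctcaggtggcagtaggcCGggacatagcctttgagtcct
*Nod2* 91188816, chr8:91188796-91188836: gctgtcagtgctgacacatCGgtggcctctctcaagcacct

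At 91186890, in an intron of *Nod2*, B6-tagged reads were at 76.9% of 39 and DBA-tagged reads at 71.4% of 28 in the BXD female. In the DXB female they were at 90.0% of 30 and 53.8% of 13, and in the DXB male at 81.5% of 27 and 29.4% of 17. The B6 chromosome was higher in all 3 mice, and the DXB male alone passed, with an adjusted p of 0.0168 (Fisher's exact test, adjusted over the genome) against 0.147 in the DXB female and 1.0 in the BXD female. Over the 3 mice the difference, DBA minus B6, was -31.2 ± 23.7 points (SD, n = 3), with p = 0.25 in a two-sided exact sign-flip permutation test, the smallest that 3 mice allow (adjusted p = 0.667 over 4 CGs). By parent of origin the difference, maternal minus paternal, was -27.6 ± 29.7 points with exact p = 0.5. With a minimum of 5 reads, which adds the BXD male, it was -9.85 ± 43.0 points (SD, n = 4, exact p = 0.75). Between strains, DBA minus B6, the difference at that minimum was -34.3 ± 20.25 points (SD, n = 4), with the B6 chromosome higher in all 4 mice. The exact sign-flip test gave p = 0.125, the smallest that 4 mice allow (adjusted p = 0.4375). At 10 reads and without the DXB male, the difference between strains was -20.8 points. In the female parents the same CG was at 82.2% of 73 reads in B6 and 61.4% of 83 in DBA, a gap of -20.7 points that was not called.

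At 91188816, in a coding exon of *Nod2* and named after its values were seen, the BXD male had 10 of 10 B6-tagged reads methylated and 0 of 14 DBA-tagged reads (adjusted p = 1.12e-05, Fisher's exact test). In the other F1 mice, at 4 to 6 reads of each kind, B6-tagged reads were at 75.0 to 100% and DBA-tagged reads at 0 to 25%. The parents had 71.4% of 7 reads in the B6 female, 0 of 3 in the DBA female and 0 of 8 in the DBA male. All 4 F1 mice and the parents that were read thus had the B6 chromosome higher, at depths below 10 in all but 1 mouse. Its neighbours on the same reads did not share this gap, with 90.0% and 92.9% at 91188784 and 100% and 85.7% at 91188851 for the B6 and DBA chromosomes of the BXD male. A base difference between the strains at this CG was not examined, as SNP positions were not used here.

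At the 3 other CGs read on both chromosomes in at least 2 mice, no test passed. At 91114747, in a coding exon of *Nkd1*, the DBA chromosome was higher in 2 of 3 mice, by 5.17 ± 8.45 points (SD, n = 3, exact p = 0.5), which was 10.03 points without the DXB female, 3.02 without the BXD female and 2.46 without the DXB male. At 91121010, between *Nkd1* and *Snx20*, the difference was -0.51 ± 2.16 points (n = 3, exact p = 1.0). At 91142613, the tagged CG closest to *Snx20*, it was 9.23 points in the BXD female and 3.33 in the BXD male (exact p = 0.5, the smallest that 2 mice allow). With a minimum of 5 reads the DBA chromosome was higher in all 4 F1 mice, by 10.6 ± 9.89 points (SD, n = 4, exact p = 0.125, the smallest that 4 mice allow). By parent of origin none of these 3 reached an exact p below 0.5. In the BXD male, 8 tagged CGs of the *Cyld* promoter were at 0 to 6.67% on the B6 chromosome and 0 to 7.45% on the DBA chromosome, and none passed.

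**Figure D5:**
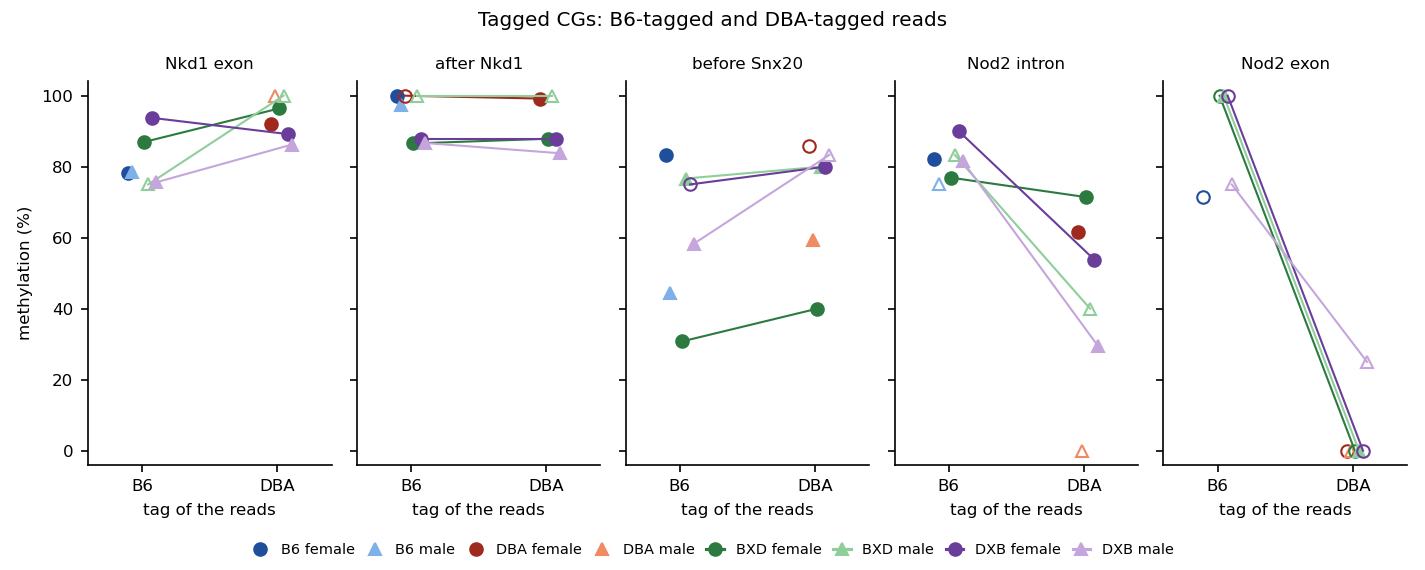
Methylation (%) of B6-tagged and DBA-tagged reads at 5 CGs (91114747, 91121010, 91142613, 91186890 and 91188816, left to right), with lines joining the 2 chromosomes of an F1 mouse. Filled points have at least 10 reads and open points fewer. The *Nod2* intron CG falls from B6 to DBA in each F1 mouse, and the *Nod2* exon CG falls from 75.0 to 100% to between 0 and 25%.

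The *Cyld* promoter was close to unmethylated. Its 47 CGs, of which 22 (DXB female) to 47 (BXD male) had 10 reads, had medians from 0 to 0.87% per mouse. Higher levels were seen at CGs at the very start of a read. At 91221209, on the minus strand, the levels were 4.17% in the DBA female, 10.7% in the BXD male, 17.6% in the DXB female, 22% in the B6 female, 23.8% in the DXB male, 25.7% in the BXD female, 33.6% in the DBA male and 41.3% in the B6 male, while the median of the other CGs of these reads was 0 in 7 mice and 5.71% in the BXD female. In *Snx20* the first CG of fragment 1 on the plus strand, 91151119, was at 41.8% in the B6 male, with a median of 10.5% at the others, and at 41.1% in the B6 female, with a median of 37.9%. It was the single CG of the window with a level between 20 and 80% in all 8 mice, out of 35 with 10 reads in each mouse when strands were added. Without the B6 male, 8 of the 16 such CGs in the *Snx20* exon were between 20 and 80% in the other 7 mice.

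Outside CG, where methylation is rare in liver, the level over the window was 0.176% in the B6 male, 0.429% in the B6 female, 0.448% in the BXD male, 0.527% in the DXB male, 0.575% in the DBA female, 0.767% in the BXD female, 0.916% in the DBA male and 1.09% in the DXB female. Within the *Snx20* fragments it was 0.27 to 1.03%.

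Calls near other genes of the 3 pathways are given as counts beside those of all genes, and with lists of this size nothing is read from them. A gene was counted when a called cytosine lay within 10 kb. Over all protein-coding genes tested, 2.95% had a call higher in DBA and 3.81% a call higher in B6 in the male parents, and 6.7% and 10.8% in the females. Of the Wnt feedback genes, 0 of 19 had a call higher in DBA in the males and 0 of 20 in the females. Higher in B6 were *Dvl1*, a Dishevelled gene, with 1 cytosine in each pair, and *Tcf7l2*, a transcription factor of the pathway, with 1 in the females. Of the NOD2 signalling genes, none of 18 (males) or 21 (females) had a call higher in DBA. *Rela*, an NF-kB subunit, had 1 call higher in B6 in the males, and *Atg16l1*, an autophagy gene, and *Tnfaip3*, an inhibitor of NF-kB, had 1 each in the females. Of 9 tested genes of the SNX20 and PSGL-1 list, 2 had calls higher in DBA in each pair. These were *Snx20* with its 15 and 3 CGs and *Selp*, which encodes P-selectin, with 1 cytosine. *Selp* also had 1 cytosine higher in B6 in each pair, and *Snx1* and *Snx6*, sorting nexins of the retromer, had 1 each in the females.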

How the data were processed

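Livers of 8 mice, 1 of each sex of B6, DBA, BXD and DXB, were measured by MspI RRBS. The authors aligned reads to mm9 with BS Seeker (version not given in the sources used here), kept unique positions, and sorted reads with a SNP to the B6 or DBA chromosome. The authors deposited raw counts of methylated and unmethylated reads for each cytosine, strand and read class, and the same level as a fraction, which was not used further. Tables of 4 comparisons by the authors, with mean levels, p-values and difference scores, were not used.

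Here counts of all classes were summed, and each strand of a CG was 1 site. The parents were compared by the rule of the study's methods (10 reads, exact 95% intervals, 50 points), over the whole genome, and tagged reads by Fisher's exact test. Groups and sexes come from the sample labels. Positions, counted from 1, and genes follow NCBIM37 (GENCODE). Every cytosine of the window was taken, and genes were named from fixed lists. The CGs planned to be named were those called in either parent pair, tagged in at least 2 F1 mice or next to the 50 point threshold. Some CGs called in other pairs of mice, first in a read or tagged in 1 F1 mouse are named as well. The window, CGs and gene lists were chosen with earlier results of these data known. The labels give 1 mouse for each strain and sex, with no further replicate. Depth sets the precision, as 1 read of 10 changes a level by 10 points. The comparisons of the female and the male of a strain, the count without the deepest read end, the strands of a CG and the first CG of a read were added after the data were seen. Other read minimums and gap sizes, Fisher's exact test, untagged reads, added strands, thinned coverage, exchanged B6 mice and the omission of each F1 mouse served as alternatives. Scripts for these rules were first tested on simulated data. Software was matplotlib 3.10.9, numba 0.67.0, scipy 1.17.1, pandas 2.3.3 and numpy 2.4.6 under Python 3.11.15.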

Additional observations from a re-analysis of the deposited data

How the results depend on the processing

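The 15 calls of the male parents, whose contrast chose the window, were 13 to 16 with 5 reads, 30 points, untagged reads, added strands or thinned coverage, as a description. They were 0 with at least 20 reads, since the B6 male had 11 to 12, and 0 without the read end of the DBA male above 200 reads, as all 15 lie on it. With the B6 female in place of the library labelled B6 male, 4 other CGs were called, higher in B6. These are on the minus strand of fragment 2, where the B6 male had 7 to 8 reads. The 15 CGs could not be tested after this exchange, as the B6 female had 6 to 7 reads there. Their read end was at 24.7% in the B6 female and 71.8% in the DBA male. The 3 calls of the female parents were 5 with 5 reads, 0 with 20 reads, 21 with a difference above 30 points (20 higher in DBA), 0 by Fisher's exact test adjusted over the genome and 20 with the library labelled B6 male. With strands added, 91151209 in the females had a gap of 35.8 points and was no longer called. Whether male-called CGs were also called in the females could not be tested as reported or under the 4 alternatives run for it, since none had enough reads in both females with 5 reads, with 30 points or with untagged reads, and none was called in the males at 20 reads. The 2 tagged CGs with a difference between chromosomes ranged from 1 to 2 when an F1 mouse was left out, with the BXD male behind 91188816 and the DXB male behind 91186890. Leaving out an F1 mouse moved 91114747 between 2.46 and 10.03 points and 91186890 between -44.1 and -20.8. The difference at 91121010 ranged from -1.44 to 0.67 points and changed sign without the DXB male. The share of DBA tags in the library labelled B6 male was 0.129% with 1 Mb on each side. The labels number no replicates, so mice of different groups could be paired by sex alone. Pairing the parents by sex gives 2 pairs, one of which chose the window. The chromosomes of an F1 mouse were compared within that mouse. The cause of these changes was not tested beyond the depths given.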

Other observations

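CGs at the first position of a read often exceeded the median of the other CGs of the same reads, as seen after the data were examined. Among read ends with at least 4 CGs at 10 reads, the first CG exceeded the median of the others at 13 of 14 read ends in the B6 female, 9 of 10 in the B6 male, 5 of 8 in the DBA female, 9 of 10 in the DBA male, 10 of 13 in the BXD female, 13 of 14 in the BXD male, 9 of 9 in the DXB female and 10 of 11 in the DXB male. The first CG exceeded every other CG at between 3 of 8 read ends in the DBA female and 8 of 10 in both parent males, with 6 of 14 in the B6 female. The median excess was 5.16 points (DBA female) to 15.2 points (DBA male). On the plus strand of *Snx20* fragment 2 the first CG was at 36.7% in the DBA male, where the others had a median of 6.12%.

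Between *Nkd1* and *Snx20*, 91142525 was at 30.8% of 13 B6-tagged reads and 73.9% of 23 DBA-tagged reads in the BXD male, with an adjusted p of 0.185 (Fisher's exact test). On the other strand of that CG, at 91142526, the order was turned, with 72.4% of 29 and 62.5% of 24. With strands added the difference was 8.56 points.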
